A study of Myotis pilosus with 4 samples.

Results

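Shortened miRNA tags in these libraries are sequences that match a conserved miRNA from its first base but stop 1 to 4 bases before its listed 3′ end. They were found by cutting each of the 119 conserved mature sequences that the study lists by 1, 2, 3 or 4 bases, keeping forms of 18 nt or more that are not listed themselves, and looking each form up among the sequenced tags. Of 334 possible forms, 305 were found, among 2315110 distinct tags over the 4 libraries. The found forms came from 105 miRNAs, 9 conserved miRNAs of 18 nt could not be shortened within the rule, and 5 longer ones had no shortened tag.

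Small RNA of adult Rickett's big-footed bats (Myotis ricketti, named Myotis pilosus in the labels) was sequenced from whole brain and from white adipose tissue (WAT) of the abdomen. The 4 libraries were hibernating brain (HB), active brain (AB), hibernating WAT (HA) and active WAT (AA), where active is the state that the labels call aroused. All bats were caught in the wild with no treatment named, and each library held RNA pooled from 3 bats, the brain and the WAT pool of a state coming from the same bats by the study's methods, so the libraries carry no measure of the spread between animals and no p-value is given. The hibernating and the active bats were caught in different seasons, so state and season cannot be told apart. The libraries held 12159756 clean reads in HB and 10007650 in AB, then 11542470 in HA and 11437337 in AA. By the study's methods the RNA integrity number was lowest for the AA pool. HA stood apart in its tags, with 1160810 distinct ones against 411552 to 629437 in the others, and its exact plus shortened miRNA reads were 20.1% of the clean reads against 35.0 to 38.2%. The part of either in the values was not tested.

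A miRNA is cut from a hairpin precursor, first in the nucleus by Drosha and then in the cytoplasm by Dicer, and is loaded into an Argonaute protein. The seed, bases 2 to 8 from the 5′ end, sets most of the targeting, while the 3′ end is where exonucleases trim and terminal transferases add bases. Forms that differ at the 3′ end are called 3′ isomiRs. They keep the seed, and their 3′ ends are known to differ among miRNAs and tissues. The let-7 family is a classic case of 3′ end control, since the protein Lin28 recruits an enzyme that tails its precursors, and it is abundant in adult brain.

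The following sequences carry the results. They are printed 5′ to 3′ as DNA letters, with the seed in capitals near the start and the bases missing from the commonest shortened tag in capitals at the 3′ end. The 6 listed as miR-7a, b, d, e, f and g share the seed GAGGTAG, which is that of let-7, and make up the let-7 family here. They are shown because 5 of them differed by state in brain:
miR-7a-5p: tGAGGTAGtaagttgtattgT
miR-7b-5p: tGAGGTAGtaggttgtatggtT
miR-7d-5p: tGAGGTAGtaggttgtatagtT
miR-7e-5p: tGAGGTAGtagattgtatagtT
miR-7f-5p: aGAGGTAGtaggttgcatagtT
miR-7g-5p: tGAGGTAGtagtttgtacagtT
Sequences that were found mostly in a shortened form are next, because they show how many bases each lost:
miR-101-3p: tACAGTACtgtgataactgaaG
miR-92a-3p: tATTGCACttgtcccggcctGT
miR-22-3p: aAGCTGCCagttgaagaactGT
miR-130-3p: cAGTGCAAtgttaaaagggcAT
miR-124b-3p: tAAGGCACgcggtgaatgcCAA
miR-153-3p: tTGCATAGtcacaaaagtgaTCA
miR-181c-3p: aCCATCGAccgttgattgTAC
miR-125-3p: aCAAGTCAggctcttgggACCT
miR-148-3p: tCAGTGCAtcacagaactTTGT
The last set is shown because each sequence differed between states in at least 1 tissue or set the level of a whole library:
miR-222-3p: aGCTACATctggctactgggtC
miR-24-3p: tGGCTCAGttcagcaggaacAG
miR-378-3p: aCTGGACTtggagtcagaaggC
miR-100-5p: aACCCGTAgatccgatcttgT
miR-455-3p: gCAGTCCAtgggcatatacaC
miR-154-3p: aATCATACatggtagacctGTTT

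Shortened tags took 42.7% of the exact plus shortened reads in HB and 37.4% in AB against 34.9% in HA and 40.4% in AA, and this share is called the shortened share below. Their exact 95% intervals were 42.62 to 42.71%, 37.32 to 37.42%, 34.86 to 34.98% and 40.31 to 40.41%. These intervals hold only the error of counting, and reads copied by PCR from 1 molecule are not independent. The share was 5.29 percentage points higher in hibernating than in active brain (95% Newcombe interval 5.23 to 5.36) and lower in hibernating than in active WAT, with a difference of −5.44 points (−5.52 to −5.36). The brain difference was 3.25 points without miR-7d-5p, which had the most exact plus shortened reads over the 4 libraries together. In HB miR-29-3p had more, with 1007356 reads against 614908, and in AB fewer, with 559119 against 623053. Counting shortened tags that are themselves listed gave a brain difference of 2.92 points. Brain and WAT thus differed in opposite directions between the states, and in this main setting HB and HA were the highest and the lowest library. With losses of 1 and 2 bases only AA was the highest and AB the lowest. By medians over miRNAs HB was the highest and AB the lowest. Without miR-378-3p, which had 611874 exact plus shortened reads in AA and 29900 in HA, the WAT difference was −0.329 points, and as a difference of medians over miRNAs it was 0.331 points. With the same weight of each of 42 miRNAs in every library it was −2.18 points, and over miRNAs with a listed length of 22 nt or more it was −11.1 points. As a part of all clean reads the shortened tags were 15.5% in HB and 14.3% in AB, and 7.03% in HA and 14.1% in AA.

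Most shortened reads had lost a single base. Forms with 1 base lost took 25.6% of the exact plus shortened reads in HB and 23.6% in AB against 23.2% in HA and 29.1% in AA. Forms with 2 bases lost took 8.80%, 6.61%, 9.48% and 9.05% in the same order. Forms with 3 bases lost took 6.95% in HB and 6.24% in AB but 1.37% in both HA and AA. The plot of shares by bases lost shows this gap between the tissues as the band that is wide in the brain libraries and narrow in the WAT libraries.

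A single tag made most of that gap. It is miR-124b-3p without its last 3 bases. miR-124 is the miRNA that marks neurons, where it restrains non-neuronal transcripts. The tag had 234851 reads in HB and 191718 in AB against 155 in HA and 135 in AA, and it held 76.4% of the reads with 3 bases lost in HB and 80.3% in AB. Forms with 4 bases lost took 1.29%, 0.942%, 0.899% and 0.845% in HB, AB, HA and AA. Here miR-101-3p without 4 bases was the largest counted tag in brain, with 17999 reads in HB and 11851 in AB. These were 31.5% and 32.9% of the counted reads with that loss. miR-124b-3p without 4 bases is itself listed, as miR-124a-3p, and was not counted. That tag had 415697 reads in HB and 449967 in AB, against 286 in HA and 292 in AA.

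**Figure D1:**
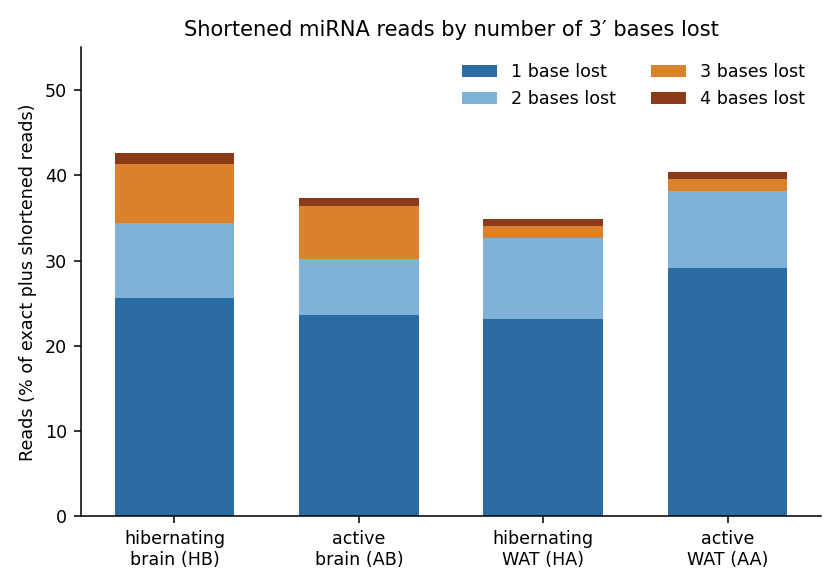
Stacked bars give, for each of the 4 libraries, the reads that lost 1, 2, 3 or 4 bases at the 3′ end as a percentage of the exact plus shortened reads of conserved miRNAs. The bars reach 42.7% in HB and 37.4% in AB, and 34.9% in HA and 40.4% in AA, and the 3-base band is 6.95% and 6.24% in brain against 1.37% in WAT.

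At the limit of the rule, 5 conserved miRNAs of 23 nt could lose 4 or 5 bases and still reach 18 nt. Their forms with 4 bases lost had 2666 reads in HB and 2413 in AB against 240 in HA and 481 in AA, while forms with 5 bases lost, just outside, had 449, 597, 80 and 107. Tags under 18 nt are not in the files, so shorter listed miRNAs had fewer countable forms. The other end of the miRNAs was seldom shortened. Tags that lacked 1 to 4 bases at the 5′ end took 1.38% of the reads exact or so shortened in HB and 0.920% in AB, and 1.84% in HA and 3.0% in AA.

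Each of the 4 libraries held many of the same forms. HB held 286 of the 305, AB 273, HA 223 and AA 237, and 191 were in all 4. There were 96 forms with 1000 or more reads over the 4 libraries, 55 with under 10, and 16 that occurred in 1 library only. By bases lost, 103 of 109 possible forms with 1 base lost were found, 92 of 100 with 2, 71 of 78 with 3 and 39 of 47 with 4. A further 3 prefixes were themselves listed and were not counted as shortened: miR-124a-3p equals miR-124b-3p less 4 bases, miR-218b-5p equals miR-218a-5p less 2, and miR-574b-5p equals miR-574a-5p less 1 base. With those counted as shortened, the share was 52.1% in HB and 49.1% in AB, because the miR-124a-3p tag had 415697 reads in HB and 449967 in AB against 286 in HA and 292 in AA. Another 2 prefixes belong to a pair of listed miRNAs each, and any short tag may also come from an unlisted miRNA that begins alike.

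The tissue labels were checked with miRNAs known from particular cells, counted as exact plus shortened reads per 1000000 clean reads (RPM). The neuronal list of miR-124 and miR-9 stood at 60666 RPM in HB and 75636 in AB, and 51.2 in HA and 47.6 in AA, and its member miR-124-5p was at 0 in both WAT libraries. The oligodendrocyte miRNAs miR-219-3p and miR-219-5p stood at 3962, 5554, 1.47 and 2.62. Both lists were thus abundant in the brain libraries and near absent in WAT. The muscle list of miR-1-3p, miR-133-3p and miR-206-3p stood at 19627 in HA and 21206 in AA and at 2543 in HB and 2046 in AB, and miR-1-3p was its most abundant member. The stromal list, led by miR-199-3p, stood at 615 in HB and 885 in AB, and 15659 in HA and 44348 in AA, and no member of the muscle or stromal list was at 0. The blood cell list of miR-142 and miR-486 stood at 40.8, 93.1, 340 and 367, with miR-486-5p its most abundant member. In such bulk libraries fewer cells of a type and less RNA per cell cannot be told apart.

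The shortened share varied more between miRNAs than between libraries. Among the 86 conserved miRNAs with 100 or more reads over the 4 libraries, the listed sequence was the commonest form for 65, and a form with 1 base lost for 9, with 2 lost for 4, with 3 lost for 6 and with 4 lost for 2. In each library the shares ran over nearly the full range, from 3% to 98.8% over 67 miRNAs in HB, 4.28% to 99.3% over 65 in AB, 3.31% to 100% over 56 in HA and 2.63% to 99.7% over 60 in AA. For the 42 miRNAs with 100 or more reads in every library, the SD of the shares between miRNAs was 27.9 points, while the median range of a miRNA over its 4 libraries was 12.9 points. The commonest form was the same in all 4 libraries for 33 of the 42, the listed one for 26 of them and a shortened one for 7.

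miR-101-3p, known for targeting the histone methyltransferase Ezh2, was found almost only without its last base or bases. Its shortened share was 98.6% in HB and 98.3% in AB, and 97.5% in HA and 97.6% in AA, from 208375 to 311695 reads a library. Over the 4 libraries 50.6% of its reads had lost 1 base and 40.5% had lost 2. In HB the form with 2 bases lost was the commonest, with 151447 reads against 127806 with 1 lost, whereas in AB, HA and AA the form with 1 lost led. miR-92a-3p, from a cluster linked to cell growth, had 83.3% of its reads at 2 bases lost, and its share was 96.1% in HB and 94.9% in AB, and 94.2% in HA and 91.4% in AA.

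miR-125-3p, the passenger arm of a brain-rich miRNA, had a share of 98.8% in HB and 98.0% in AB, and 99.3% in HA and 97.8% in AA, and 49.9% of its reads had lost 4 bases. The broadly expressed miR-148-3p had 59.6% of its reads at 4 bases lost, with shares of 81.8%, 74.7%, 86.2% and 83.2% in HB, AB, HA and AA. For both, the form with 4 bases lost was the commonest in every library. For miR-22-3p, 60.0% of the reads had lost 2 bases, and the share was 87.6% in HB and 83.6% in AB, and 76.3% in HA and 73.3% in AA. miR-130-3p, which represses the adipocyte regulator Pparg, was spread over 2 bases lost (36.7%) and 4 bases lost (28.1%). Its commonest form had 2 bases lost in HB and AA, with 798 and 8006 reads against 606 and 5434 with 4 lost. In AB and HA the form with 4 lost led, with 544 and 1945 reads against 443 and 1908 with 2 lost. The margin in HA was thus narrow. The shares of miR-130-3p were 86.6% in HB and 84.9% in AB, and 80% in HA and 85.0% in AA. miR-153-3p, a miRNA of the nervous system, had 50.1% of its reads at 3 bases lost, with a share of 87.4% in HB and 79.4% in AB. miR-181c-3p, a passenger arm, had 41.1% at 3 bases lost and shares of 78.1%, 82.2%, 100% and 89.9%, and the value of 100% rested on 201 reads in HA.

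Other abundant miRNAs were mostly full length. miR-1-3p, the main muscle miRNA, had a shortened share of 21.5% in HB and 19.5% in AB, and 10.4% in HA and 13.0% in AA. miR-199-3p, typical of mesenchymal cells, had 14.3%, 9.10%, 13.3% and 9.36%. The oligodendrocyte miRNA miR-219-3p had 10.4% in HB and 7.93% in AB, while its sister arm miR-219-5p had 55.1% and 56.0% in those libraries. The arms thus differed by more than the states did for either arm. miR-29-3p, which targets collagen transcripts, was among the most abundant, and its share was 20.7% in HB and 25.6% in AB, and 12.2% in HA and 17.4% in AA, lower in the hibernating library of both tissues. miR-154-3p of the imprinted Dlk1-Dio3 cluster was mostly exact, but 15.9% of its reads had lost 4 bases and no more than 2.72% had any other loss.

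**Figure D2:**
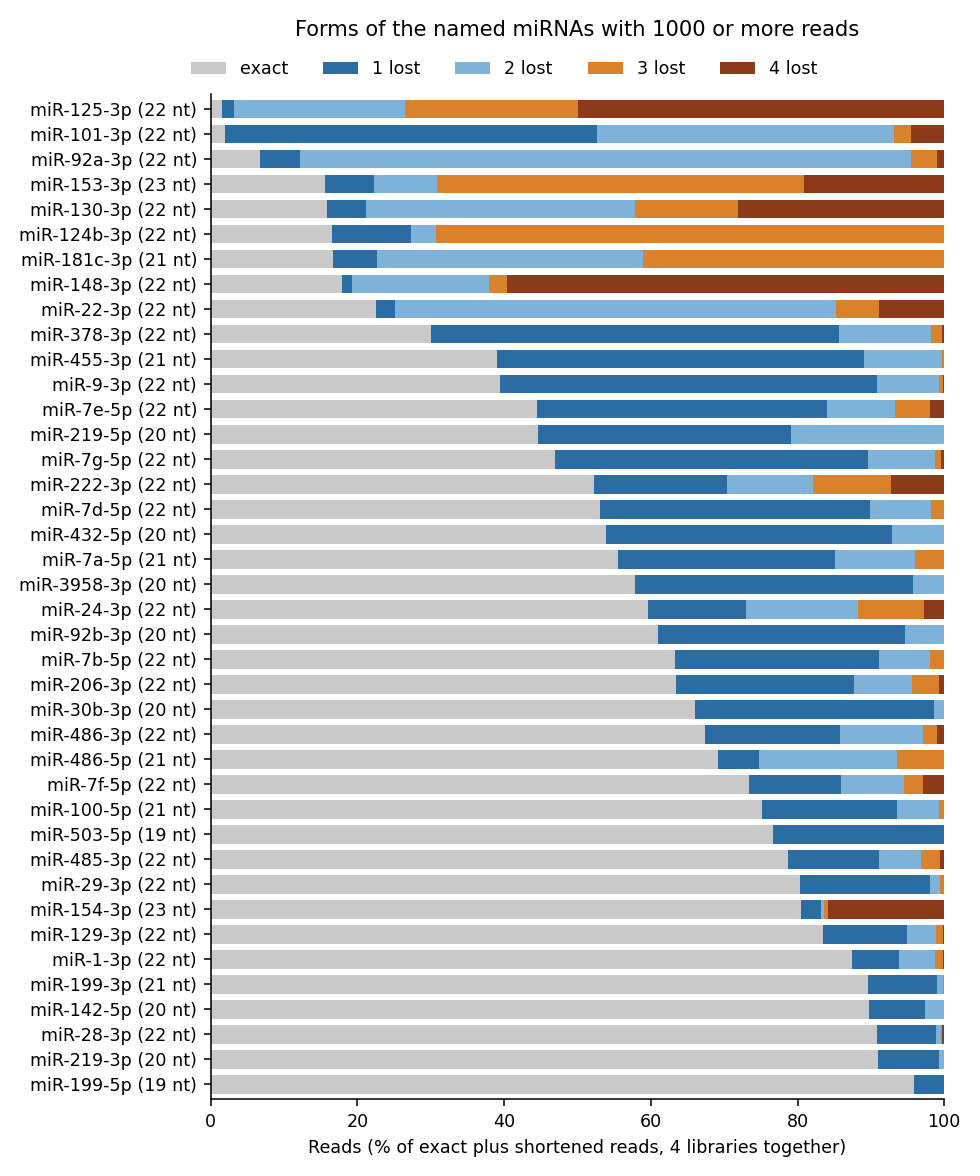
Each bar gives the reads of 1 named miRNA over the 4 libraries, split into the exact sequence and forms with 1 to 4 bases lost, as a percentage of its exact plus shortened reads. The 40 miRNAs with 1000 or more reads are ordered by shortened share, from miR-125-3p, with 1.60% exact, to miR-199-5p, with 95.9% exact, and the largest band differs from miR-101-3p (1 lost) to miR-92a-3p (2 lost) and miR-148-3p (4 lost).

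Listed sequence features were described for the 60 conserved miRNAs with 1000 or more reads over the 4 libraries. The median share was higher for longer listed sequences, from 24.3% for 11 miRNAs of 20 nt to 37.6% for 14 of 21 nt, 53.1% for 29 of 22 nt and 76.2% for 4 of 23 nt, and longer sequences also have more forms of 18 nt or more to count. The median loss of 1 base alone, which every length allows, was 19.2%, 9.02%, 17.7% and 12.4% for the same lengths. The 42 3p arms had a median share of 45.7% and the 18 5p arms 33.8%. For the loss of 1 base alone the order was reversed, with 14.4% for 3p and 21.3% for 5p arms. By last listed base the medians were 65.5% for 8 miRNAs ending in C and 42.7% for 11 in A. They were 40.4% for 9 in G and 37.9% for 32 in U. For the loss of 1 base alone the medians were 33.6% for C, 10.8% for A, 19.2% for G and 14.0% for U. Between the listed and the commonest forms the count ending in U went from 32 to 31, in A from 11 to 13, in G from 9 to 11 and in C from 8 to 5.

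The question of the study was how small RNAs differ between hibernation and activity, and the shares were therefore compared between states within each tissue. A share within a miRNA needs no scaling between libraries. A miRNA was counted as different when its share differed by 10 percentage points or more and it had 100 or more exact plus shortened reads in both libraries. In brain 12 of 63 conserved miRNAs had a higher share in HB and 2 a lower one, while over all 73 listed miRNAs with enough reads, bat-specific ones included, the background was 19.2% higher and 2.74% lower. Not all of the 12 held with tags that run past the listed end added to the denominator. In that setting miR-7b-5p, miR-7e-5p and miR-378-3p were at 9.92, 6.54 and −1.87 points. In the main setting the median difference of the 63 was 4.79 points. The counting interval lay above 0 for 38, below 0 for 8 and across 0 for 17. The share was thus higher in HB for 48 of the 63 and lower for 15.

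The let-7 family made up much of the list. Of its 6 members 5 had a share higher by 10 points or more in HB, against the background of 19.2%. The family median was 13.3 points beside 4.79 over all listed miRNAs. let-7 miRNAs hold cells in a differentiated state and damp growth signals. miR-7d-5p, the most abundant of them, had a share of 60.2% in HB and 41.5% in AB, and 37.7% in HA and 46.6% in AA. The HB library stood well above the other 3, and the brain difference was 18.8 points (interval 18.6 to 18.9). In HB its form with 1 base lost had 282895 reads against 244630 for the exact form, while in AB the exact form led with 364795 reads against 204249.

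miR-7e-5p had a share of 66.7% in HB and 53.8% in AB, and 43.1% in HA and 53.9% in AA. miR-7g-5p had 65.8%, 52.8%, 39.0% and 46.8%. For both, as for miR-7d-5p, the form with 1 base lost was the commonest in HB and the exact form in the other 3 libraries. miR-7b-5p had shares of 47.8%, 34.2%, 34.0% and 32.6%, and miR-7f-5p had 42.7%, 20.7%, 32.9% and 23.9%. Their largest values were again in HB. miR-7a-5p, with 220 to 1097 reads a library, was the exception, with shares of 40.8%, 42.2%, 51.4% and 53.0% and a brain difference of −1.37 points whose interval covered 0. With tags that run past the listed end added to the denominator, its brain difference was 5.80 points, those of miR-7b-5p and miR-7e-5p were 9.92 and 6.54 points, and those of miR-7d-5p, miR-7f-5p and miR-7g-5p were 14.0, 18.3 and 10.1 points. In that setting 3 of the 6 thus reached 10 points in place of 5.

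**Figure D3:**
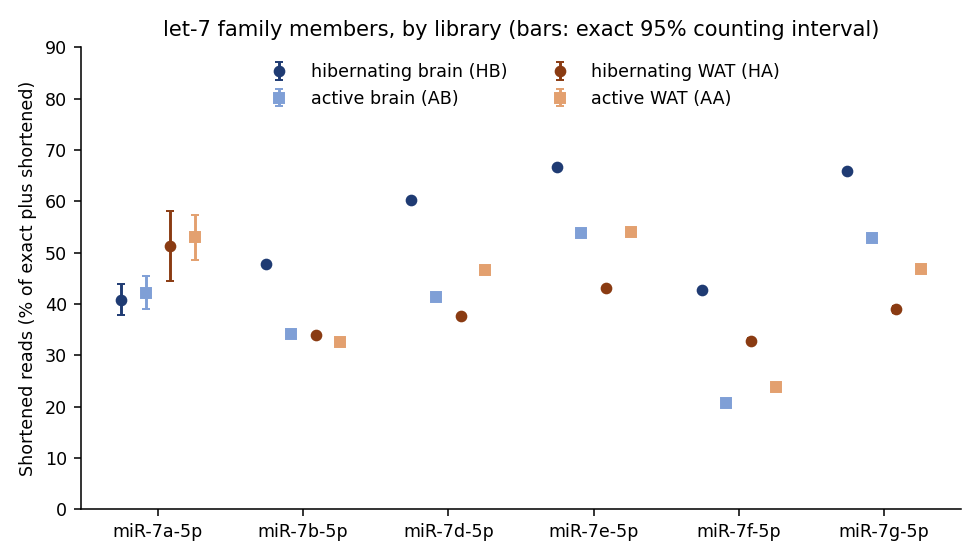
Points give the shortened share (percentage of exact plus shortened reads) of the 6 let-7 family members in the 4 libraries, and bars give the exact 95% counting interval, which is smaller than the point for most. HB is the highest library for miR-7b, 7d, 7e, 7f and 7g, and among the WAT libraries HA is lower than AA for 7d, 7e and 7g, while the intervals of 7a overlap.

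Outside the let-7 family the largest brain difference was that of miR-222-3p, which acts on the cell cycle inhibitor p27. Its share was 64.0% in HB and 37.8% in AB, and 45.9% in HA and 53.5% in AA, a difference of 26.2 points in brain (24.3 to 28.0). miR-24-3p, a broadly expressed miRNA, had 54.7%, 33.0%, 29.7% and 44.4%, a difference of 21.7 points in brain (18.1 to 25.2), which was 12.7 points with longer tags in the denominator. Both were highest in HB, and in both the active WAT library exceeded the active brain library. miR-7c-3p, an arm of the true miR-7 precursor, had 30.4% in HB and 11.7% in AB, from 306 and 239 reads, and the other higher miRNAs ranged up to 17.7 points. The 2 lower ones rested on few reads: miR-503-5p had 20.7% in HB and 33.3% in AB from 309 and 219 reads, and miR-744-5p had 39.8% and 51.3% from 309 and 306 reads. Their differences with longer tags in the denominator were −5.87 and −5.92 points, and neither reached 10.

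The miRNAs of neurons and glia had smaller differences in brain. Of the 16 in the list, 13 had enough reads in both brain libraries, none differed by 10 points against the background of 19.2% higher and 2.74% lower, 10 had a higher share in HB as did 48 of all 63 conserved miRNAs, and their median difference was 2.46 points beside 4.79 over all listed miRNAs. With losses of 1 and 2 bases only miR-153-3p, one of the 13, was at 22.3 points in place of 7.98. miR-124b-3p had a share of 87.7% in HB and 79.2% in AB, a difference of 8.46 points, which was 2.99 points when the listed miR-124a-3p tag was counted as one of its shortened forms. miR-9-3p, a neural progenitor and neuron miRNA, had 63.9% and 57.8%. miR-129-3p, another brain miRNA, had 16.1% and 16.5%. The summed neuronal and oligodendrocyte lists were at a higher RPM in AB than in HB, while their members miR-124-5p (276 reads in HB, 187 in AB) and miR-219-5p (3702 and 2030 reads) went the other way, and the part of cell composition in the shares was not tested.

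**Figure D4:**
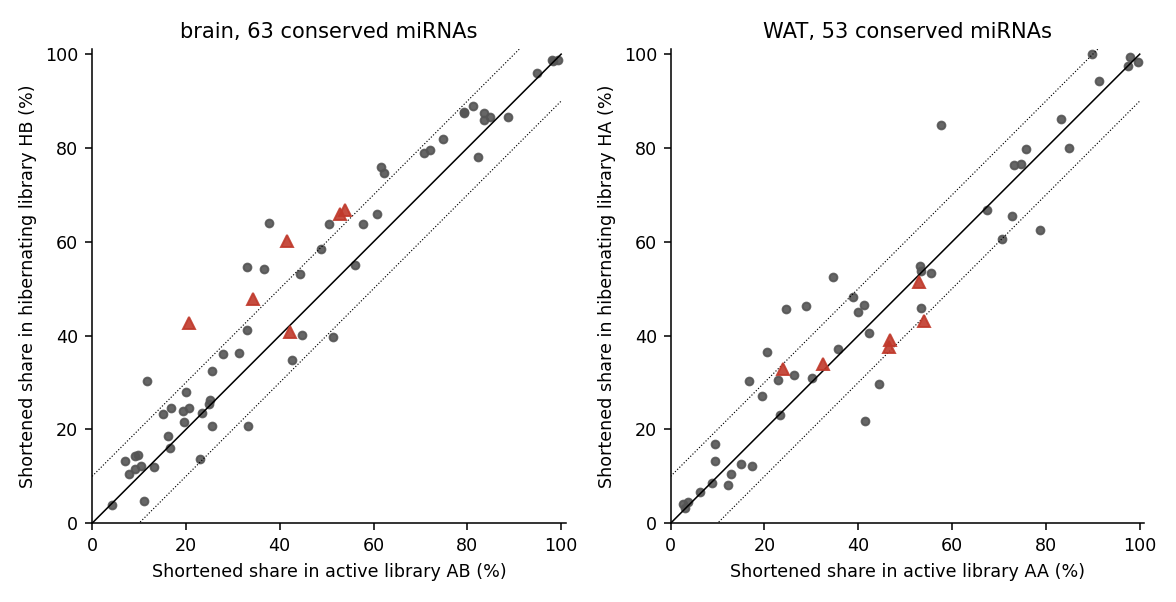
Each point is a conserved miRNA with 100 or more reads in both libraries, with its shortened share in the active library on the x axis and in the hibernating library on the y axis, in percent, for brain (63 miRNAs) and WAT (53). Red triangles are the let-7 family, the solid line marks equal shares and the dotted lines mark 10 points above and below it. In brain most points lie above the line (48 of 63), and in WAT they lie on both sides (31 above and 22 below).

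In WAT 7 of 53 conserved miRNAs had a share higher by 10 points or more in HA and 4 a lower one, and over all 64 listed miRNAs with enough reads the background was 10.9% higher and 7.81% lower. The median difference was 0.948 points, and the interval lay above 0 for 20, below 0 for 15 and across 0 for 18. The direction was thus mixed, unlike the pooled difference of −5.44 points. The abundant miR-378-3p weighed most on the pooled value of AA. It is made from an intron of Ppargc1b and is tied to fat and energy metabolism. Its share was 75.8% in HB and 61.7% in AB, and 60.6% in HA and 70.6% in AA, and it supplied 26.7% of all shortened reads of AA. Its brain difference of 14.2 points was −1.87 points with tags that run past the listed end added to the denominator. In that setting, where longer tags also count toward the 100 reads, 5 miRNAs were higher and 9 lower in HA by 10 points or more, in place of 7 and 4.

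The let-7 family in WAT had 4 of 6 members with a lower share in HA, beside 22 of all 53 conserved miRNAs, 1 of them by 10 points or more against the background of 7.81%, and a median of −4.70 points beside 0.350 over all listed miRNAs. The difference was −10.8 points for miR-7e-5p, −8.95 for miR-7d-5p and −7.79 for miR-7g-5p, and with longer tags in the denominator it was −16.8, −14.7 and −9.59 points. These same 3 were higher in HB than in AB by 12.9 to 18.8 points. miR-7f-5p was higher in both hibernating libraries, by 22.1 points in brain and 8.99 points in WAT, the latter 3.63 points with longer tags. miR-7b-5p was at 1.39 points in WAT and at −5.83 points with longer tags. In that setting 5 of the 6 family members were lower in HA, 2 of them by 10 points or more, and the family median was −7.89 points. miR-24-3p had opposite signs in the tissues, with −14.6 points in WAT. miR-124b-3p, which was rare in WAT, had 62.5% in HA and 78.7% in AA from 296 and 235 reads, a difference of −16.2 points. That difference was −9.58 points with the miR-124a-3p tag counted as shortened and −28.7 points with losses of 1 and 2 bases only. miR-365-5p, listed with adipocyte miRNAs, had 21.7% in HA and 41.5% in AA from 138 and 193 reads, but 5171 and 4706 further reads ran past its listed end, and with these in the denominator its difference was −1.07 points in place of −19.7.

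Among the 7 miRNAs higher in HA by 10 points or more, miR-100-5p had the most reads, with 175986 reads in HA and 373577 in AA. Its share was 28.0% in HB and 19.9% in AB, and 36.6% in HA and 20.4% in AA. miR-100 is encoded next to a let-7 gene and acts on mTOR. With longer tags in the denominator its WAT difference was 6.15 points in place of 16.1, since 244923 reads in HA and 461696 in AA ran past its listed 21 nt. miR-455-3p, linked to brown fat formation, had 84.9% in HA and 57.6% in AA from 430 and 1261 reads, and 58.4% in HB and 48.7% in AB. Its WAT difference was 27.3 points, but 5.28 points with longer tags in the denominator, of which HA had 718 and AA 1477. A list of 8 miRNAs was used for the imprinted Dlk1-Dio3 cluster, and without a genome it may not hold every member. All 3 of the list measured in WAT had a higher share in HA, with a median of 17.4 points. Of the 53 conserved miRNAs 31 were higher, and the median over all listed ones was 0.350 points. The 3 were miR-432-5p (52.5% in HA, 34.6% in AA), miR-485-3p (46.3% and 28.9%) and miR-154-3p (30.4% and 16.7%), from 138 to 1551 reads. With longer tags in the denominator their differences were 3.75, 11.5 and 12.4 points, so miR-432-5p no longer reached 10 and the median was 11.5. With losses of 1 and 2 bases only miR-154-3p was at 4.43 points in place of 13.7, as most of its shortened reads had lost 4 bases (39 in HA and 18 in AA). In brain the 6 measured members of that list had a median difference of 2.65 points beside 4.79 over all listed miRNAs. None reached 10, against a background of 19.2% higher and 2.74% lower. The median of that list in brain was −0.00648 points with losses of 1 and 2 bases only.

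The 8 miRNAs listed for adipose tissue and metabolism were all measured in WAT, where 1 was higher and 1 lower by 10 points or more, near the background of 10.9% and 7.81%, and the median was 1.14 points beside 0.350 over all listed miRNAs. In this list 0 were higher and 3 lower with longer tags in the denominator, namely miR-378-3p at −23.3 points, miR-193-3p at −19.7 and miR-130-3p at −11.8, in place of miR-455-3p and miR-365-5p, and the median was 0.384. With losses of 1 and 2 bases only 1 was higher and 3 were lower, and the median was 0.125. The 3 muscle miRNAs had differences from −2.58 to 9.33 points and the 3 stromal ones from 0.738 to 7.37 points. Neither list held a member past 10 points, although miR-133-3p was at 10.3 points with losses of 1 and 2 bases only. The stromal list was at 15659 RPM in HA and 44348 in AA, a sum that is nearly all miR-199-3p. Its member miR-145-3p went the other way, with 262 reads in HA and 191 in AA. The part of these levels in the shares was not tested.

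Of the 42 miRNAs measured in both tissues, 19 had a higher share in the hibernating library of both, 15 were higher in brain and lower in WAT, 4 were lower in brain and higher in WAT and 4 were lower in both. The plot of both differences shows the named miRNAs of these groups. Among the 15 were miR-222-3p, miR-24-3p, miR-378-3p, miR-7d-5p, miR-7e-5p and miR-7g-5p, of which miR-378-3p was lower in both tissues with longer tags in the denominator. HB gave the highest share of the 4 libraries for 26 of the 42, AB for 3, HA for 11 and AA for 2.

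**Figure D5:**
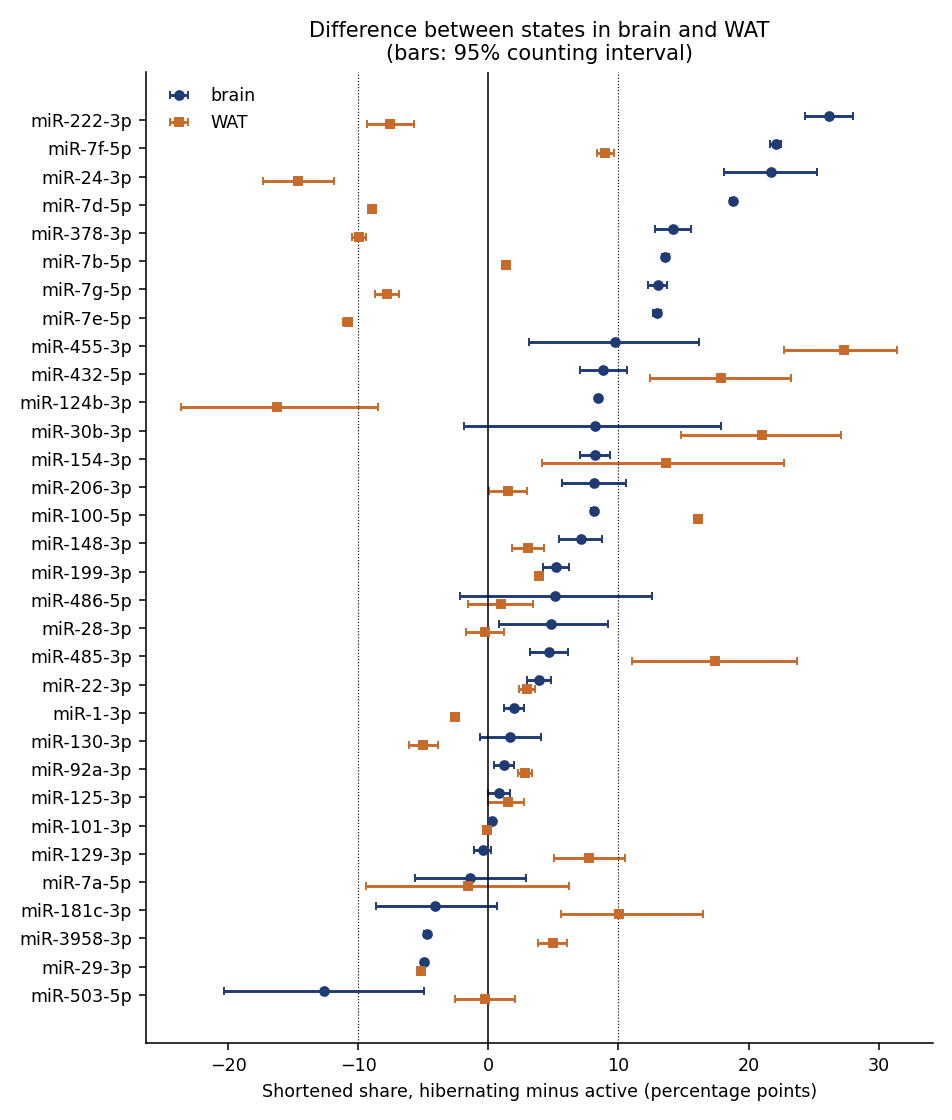
Differences in shortened share, hibernating minus active, in percentage points, for the 32 named miRNAs measured in both tissues. Circles are brain, squares are WAT, and bars are 95% Newcombe intervals for counting error. From miR-222-3p, at 26.2 points in brain and −7.55 in WAT, to miR-503-5p, at −12.6 and −0.256, many pairs lie on opposite sides of 0.

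The tissues were compared within a state with the same libraries, so these comparisons are not independent of those between states. In the active state 3 of 48 conserved miRNAs had a share higher by 10 points or more in brain and 4 in WAT, with a background of 5.26% and 7.02%. In hibernation 16 of 46 were higher in brain and 5 in WAT, with a background of 33.3% and 9.26%. The tissues thus stood further apart in the hibernating than in the active libraries. In hibernation miR-7g-5p was higher in brain by 26.9 points, miR-7e-5p by 23.6 and miR-7d-5p by 22.5, whereas in the active libraries they differed by 6.08, −0.137 and −5.17 points. The miR-92a-3p relative miR-92b-3p, which shares its seed, had 34.8% in HB and 7.97% in HA, the latter from 138 reads. With longer tags in the denominator its difference was 11.1 points in place of 26.8. In the other direction the difference, HB minus HA, was −26.4 points for miR-455-3p and −22.3 points for miR-485-3p, but with longer tags in the denominator these were 6.39 and −14.0 points.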

How the data were processed

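Small RNA of 4 pools was size selected on a gel, ligated to adapters and sequenced on the Illumina/Solexa platform. Adapter and low quality sequence was taken out by the authors, who deposited 1 list per library of the distinct tags of 18 to 30 nt with their raw read counts. Aligner settings play no part, since tags were matched as whole strings to the mature sequences of the study's supplementary list. A tag of 2 listed miRNAs entered the pooled share once, under the smaller loss, and was left out of single miRNAs. Shares and Clopper-Pearson and Newcombe intervals (95%) were computed in Python 3.11.15 with NumPy 2.4.6 and SciPy 1.17.1, plotted with Matplotlib 3.10.9, and the scripts were tested on simulated data. No test was made, since each condition had 1 library.

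The miRNAs named are the 10 with the most reads, the 5 largest differences past 10 points in each direction and comparison, the 5 highest and 5 lowest shares among miRNAs of 22 nt or more with 1000 or more reads, the 3 most abundant tags of each loss, and the tissue markers; lists are described through further members. The tags, lists and rules were chosen with earlier results of these data known. Alternatives covered the bases lost, listed length, the denominator, weighting, read minimum and size of difference. No genome was used here, so no coordinates are given. Other tables of the supplement were not used here.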

Additional observations from a re-analysis of the deposited data

Results flagged for a closer look

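Among the pooled share and the named miRNAs, 11 values compared between states had opposite signs in brain and WAT, with counting intervals that did not reach 0. With 1 library per condition the difference between the tissues was not tested. For the pooled shortened share the brain difference minus the WAT difference was 10.7 points (5.29 against −5.44). The gap between the brain and the WAT difference was 36.3 points for miR-24-3p, 33.7 for miR-222-3p, 27.7 for miR-7d-5p, 24.7 for miR-124b-3p, 24.1 for miR-378-3p, 23.8 for miR-7e-5p and 20.8 for miR-7g-5p. It was small for the muscle miRNA miR-1-3p (4.58 points) and for miR-101-3p (0.401 points). For miR-3958-3p the signs were turned, with −4.74 points in brain and 4.93 points in WAT, a gap of −9.67 points. With longer tags in the denominator 2 of these lost their opposite signs: miR-378-3p had −1.87 points in brain and −23.3 in WAT, and miR-3958-3p had −4.73 and −0.507.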

How the results depend on the processing

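No paired analysis was made, since each comparison is between 2 single libraries and no result comes from a test. The alternatives moved the pooled share as follows, each in the order HB, AB, HA, AA, then the difference between states in brain and in WAT. With losses of 1 and 2 bases only it was 37.5%, 32.5%, 33.4% and 39.0%, with differences of 5.0 and −5.60 points. With listed lengths of 22 nt or more it was 52.3%, 46.3%, 37.7% and 48.8% (6.06 and −11.1 points). With longer tags in the denominator it was 33.1%, 28.6%, 25.2% and 31.5% (4.56 and −6.30). Without miR-7d-5p, first by exact plus shortened reads over the 4 libraries, it was 39.8%, 36.6%, 34.2% and 39.1% (3.25 and −4.90). As the median over miRNAs it was 41.2%, 36.6%, 39.7% and 39.4%, with 4.63 points in brain and, with the sign turned, 0.331 points in WAT. With listed short forms counted HB and AB were 52.1% and 49.1% and the brain difference 2.92 points. The next alternatives were chosen after seeing the data. Without miR-378-3p AB, HA and AA were 37.3%, 34.6% and 34.9%, and the WAT difference was −0.329 points. With the same weight of each of 42 miRNAs in every library the shares were 48.0%, 41.0%, 37.8% and 40.0% (6.97 and −2.18). Leaving out tags with a single read moved none of these values beyond its interval.

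Counts past 20 points in place of 10 were 3 higher and 0 lower in brain, 2 and 0 in WAT, 0 and 0 between active tissues and 7 and 3 between hibernating tissues. With the interval wholly beyond 10 points, 0 were lower in brain, 2 lower in WAT, 0 higher and 1 lower between active tissues and 3 lower between hibernating tissues. At 1000 reads they were 0 lower in brain, 1 higher and 2 lower in WAT, 1 and 2 between active tissues and 1 lower between hibernating tissues, and at 30 reads 7 were higher in active brain. With longer tags in the denominator 0 were lower in brain, 9 lower in WAT and 3 lower in hibernating brain than WAT. Of the 12 higher in brain, miR-7b-5p, miR-7e-5p and miR-378-3p were among those that then no longer reached 10 points. That setting also turned the sign of miR-378-3p in brain (−1.87 points, 14.2 before) and of miR-455-3p between hibernating tissues (6.39 points, −26.4 before). The cause was not tested. Of 435 values of single miRNAs under alternatives, 318 stayed within the main interval. Depth limits miRNAs with few reads, such as miR-154-3p in WAT, and the spread between bats was not measured.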

Other observations

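Sequences with a common seed could have very different shares. Of the miR-92 list, which begin alike, 1 had a higher and 2 a lower share in HB than in AB, none by 10 points. Among all 63 conserved miRNAs 48 were higher in HB, and the background past 10 points was 19.2% higher and 2.74% lower. miR-92b-3p had 34.8% in HB and 42.7% in AB, whereas miR-92a-3p, with the same seed, had 96.1% and 94.9%. The brain difference of miR-92b-3p was −7.92 points, but −0.451 points with longer tags in the denominator. miR-29-3p and miR-285-3p also share a seed. miR-285-3p was rarely shortened, with 3.81% in HB and 4.28% in AB, and 3.31% in HA and 2.96% in AA, beside 12.2 to 25.6% for miR-29-3p.

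The 3 measured 3p arms of the miR-30 family were all higher in HB, as were 48 of the 63 conserved miRNAs. None of the arms reached 10 points, against a background of 19.2% higher and 2.74% lower. The arms had a median of 7.78 points beside 4.79 over all listed miRNAs. With longer tags in the denominator 2 of the 3 were higher, with a median of 5.40 points. The counting intervals in brain covered 0 for miR-30a-3p (−2.56 to 6.97) and miR-30b-3p (−1.88 to 17.9). In WAT miR-30b-3p had 45.7% in HA and 24.7% in AA from 420 and 466 reads, and the other 2 measured arms differed by 4.08 and −2.33 points with intervals that covered 0. miR-16-5p, which restrains cell cycle genes, had 66.0% in HB and 60.7% in AB, and 53.3% in HA and 55.4% in AA. The blood cell list had differences from −4.02 to 5.41 points in WAT over its 3 measured members. With longer tags in the denominator miR-486-3p was at −0.596 points in place of 5.41. The list median was then −0.596 points in place of 0.948. The miR-92, miR-29, miR-30 and miR-16 members beyond the stated rule were named after their values were seen.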
